A study of Mus musculus with 12 samples.

Results

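The genes described here are those with far more RNA in adipocytes than in stromal vascular cells (SVCs) of both fat depots and with similar levels in the adipocytes of both. They were chosen on group means of TPM, a transcript level corrected for gene length and scaled to the same total in each library, with 0.1 added to each mean. A member had a level in adipocytes at least 8 times that in SVCs in each depot, an epididymal to inguinal ratio from 0.67 to 1.5 in adipocytes and above 0.4 but below 2.5 in SVCs, and a mean of at least 5 TPM in both adipocyte groups. Of 32182 genes listed, 45 met the rule. All 12 libraries and all 4 comparisons between groups entered this choice, so the levels and ratios below describe the members and are no independent evidence for the pattern.

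The libraries come from male C57BL/6J mice, an inbred strain, given a high-fat diet (HFD) for 10 weeks from the age of 8 weeks. Every group shares this diet, and no group on another diet is included. Epididymal adipose tissue (EAT) lies in the abdomen next to the testis, and inguinal adipose tissue (IAT) lies under the skin. Collagenase split each depot into adipocytes and SVCs, giving 3 libraries of adipocytes and 3 of SVCs from either depot, 4 groups in all. The labels do not say whether replicates came from separate or pooled animals, so the spread between them may be technical.

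Adipocytes store triglyceride in a large lipid droplet, take up fatty acids and glucose under the control of insulin, release fatty acids in fasting and secrete hormones. The SVC fraction is the remainder of the tissue, a mixture of precursor, immune, endothelial and other cells, in which genes of the mature adipocyte are usually low. Genes that mark adipocytes in both depots are therefore candidates for functions common to white fat. The files give genes as UCSC transcript identifiers without symbols, and no table used here adds them. The members are therefore described by level, length and rank. The adipocyte label could not be checked against known marker genes, and the roles of the members are not given.

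The libraries held 20707325 to 26349357 expected counts each. EAT adipocyte replicate 2 stood apart from the other libraries along gene length, with short genes higher and long genes lower, and this touches the members as described below. In bulk samples like these, fewer cells of a type and less RNA per cell cannot be told apart.

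The members spanned a wide range of levels. Of the 45, 3 had a mean of at least 1000 TPM in both adipocyte groups, 15 of at least 100 TPM and 41 of at least 10 TPM. Their summed level was 1.34% ± 0.340 (SD, n = 3) of all TPM in EAT adipocytes and 1.74% ± 0.0573 in IAT adipocytes, against 0.0711% ± 0.00142 in EAT SVCs and 0.0600% ± 0.000764 in IAT SVCs. The 2 most abundant members made up 58.1% of the summed mean level in adipocytes. The 3 EAT adipocyte libraries differed from each other in this sum, at 0.992%, 1.67% and 1.35% in replicates 1, 2 and 3, while the 3 IAT adipocyte libraries lay between 1.68% and 1.79%. Replicate 1 of EAT adipocytes was thus the lowest of the 6 adipocyte libraries, and replicate 2 nearly reached the lowest IAT library.

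**Figure D1:**
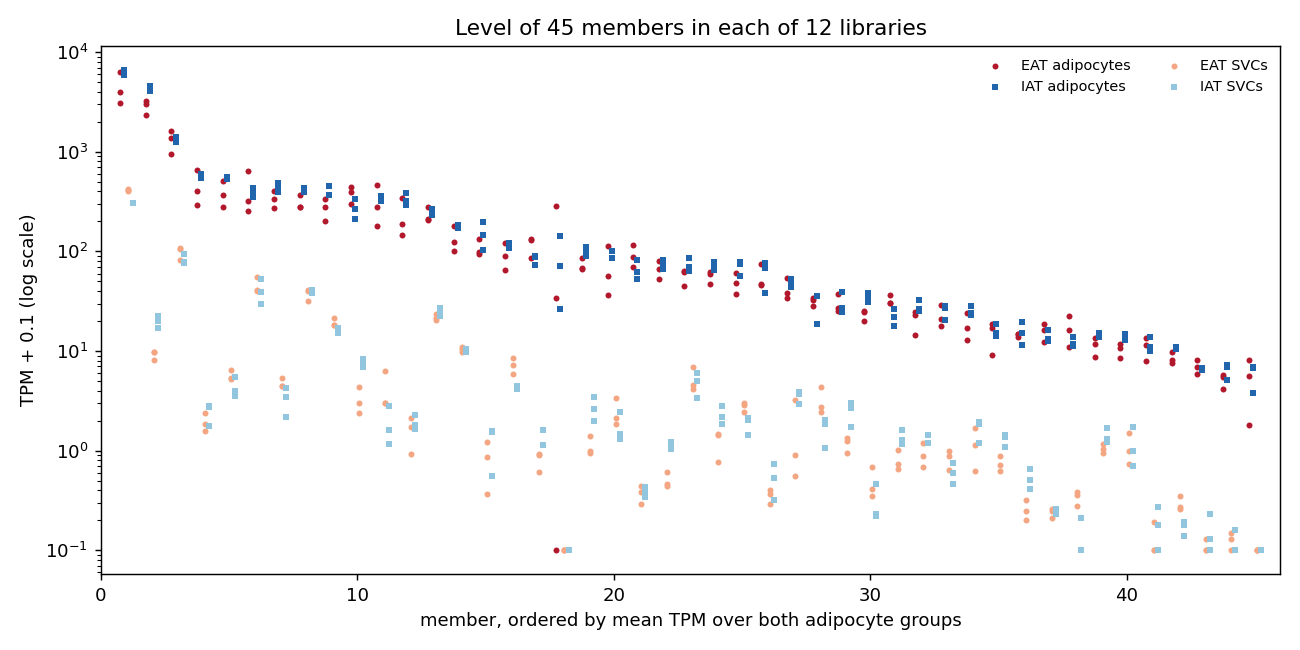
Level of each of the 45 members in the 12 libraries, as TPM + 0.1 on a log scale, with members ordered along the horizontal axis by their mean over both adipocyte groups and each point standing for 1 library. Red and blue points (adipocytes) lie above pale points (SVCs) for every library in 44 of the 45 members; in member 18, 1 EAT adipocyte library is at 0.

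The most abundant member, uc007cje.1 (2 transcripts, 587 bases), had 3099.6, 6338 and 3947 TPM in EAT adipocyte replicates 1 to 3 and 5905, 6639 and 6270.1 TPM in IAT adipocytes. It ranked 21 among all genes in EAT adipocytes and 16 in IAT adipocytes. The groups overlapped, because replicate 2 of EAT adipocytes lay within the IAT range while replicates 1 and 3 lay below it. Its group means were 4462 ± 1679 and 6271 ± 367 TPM (SD, n = 3), an EAT to IAT ratio of 0.711. In SVCs it stood at 422, 407 and 412 TPM in EAT and at 308, 309 and 305 TPM in IAT, the highest SVC level of any member. It was thus 10.8 times as high in adipocytes as in SVCs in EAT and 20.4 times in IAT. In SVCs the EAT libraries all lay above the IAT libraries, the opposite order to the means in adipocytes.

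The next member, uc009dgb.1 (2 transcripts, 1713 bases), had 2344, 3039.8 and 3229.8 TPM in EAT adipocytes and 4075, 4197 and 4538 TPM in IAT adipocytes. All EAT adipocyte libraries lay below all IAT adipocyte libraries, and with a ratio of 0.672 it was the member nearest to the lower bound of the rule. Unlike uc007cje.1 it was almost confined to adipocytes on this scale, with 9.79, 9.73 and 7.97 TPM in EAT SVCs and 19.8, 17.0 and 22.1 TPM in IAT SVCs. Its ratio of adipocytes to SVCs was 310.0 in EAT and 216 in IAT, the former being the highest in EAT of the 44 members whose length allowed a stable TPM. In SVCs, too, all EAT libraries lay below all IAT libraries, with a ratio of 0.469.

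The third member by level (1353 bases) came close to equality. It had 951, 1621 and 1377 TPM in EAT adipocytes and 1257, 1252 and 1405 TPM in IAT adipocytes. The ratio of its means was 1.01, and the EAT libraries spread on both sides of the IAT libraries. In SVCs it had 109, 105 and 81.4 TPM in EAT and 79.1, 94.7 and 77.2 TPM in IAT, and the groups overlapped there as well.

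Members differed widely in how much RNA the SVC fraction held. The ratio of adipocytes to SVCs had a median of 40.6 in EAT and 37.8 in IAT, with lowest values of 8.15 and 9.47. The SVC level was at most 12.2% of the adipocyte level in EAT and 10.5% in IAT, with medians of 2.01% and 2.5%. Both ratios were at least 100 for 7 members, among them the 119-base gene model described below, and both were below 20 for 10 members. At the low end of contrast, 6 members had a mean of at least 10 TPM in both SVC groups (ranks 1, 3, 6, 8, 9 and 13 by level). The member of rank 8 (3269 bases), for example, had 307 ± 49.8 TPM in EAT adipocytes and 37.6 ± 4.87 in EAT SVCs. At the high end, the member of rank 4 (768 bases) had 450.0 ± 183 TPM in EAT adipocytes and 584 ± 30.5 in IAT adipocytes, but 1.83 ± 0.394 and 2.34 ± 0.570 TPM in the SVCs of these depots. In 13 members the mean was below 1 TPM in both SVC groups. The ratio was higher in IAT for 23 members and higher in EAT for 22. With edgeR's quasi-likelihood test on counts at an adjusted p below 0.05, 44 members could be tested and all 44 were higher in adipocytes in EAT (background: 30.4% of 15813 genes higher, 62.5% in either direction) and in IAT (background: 29.5% higher, 70% in either direction). All adipocyte libraries lay above all SVC libraries for 44 members in EAT (background: 25.3% of the 9341 genes with a mean of at least 5 TPM in both adipocyte groups) and for 45 in IAT (background: 32.8%). The rule chose on these contrasts, so nothing follows from these calls.

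The remaining member, of rank 18, was a gene model of 119 bases, and its values differ in kind. It had 33.9, 0 and 287 TPM in EAT adipocytes and 144, 71.5 and 26.6 TPM in IAT adipocytes, with 0 TPM in all 6 SVC libraries. These levels rested on 4.97 and 3.83 expected counts summed over the 3 libraries of each adipocyte group. The SVC libraries held similar counts, 2.64 in EAT and 5.99 in IAT, which are listed at 0 TPM. Its effective length, the number of positions at which a fragment could start, was at most 1.52 bases and 0 in some libraries. It did not pass the filter on low counts. Its summed counts order the fractions as its TPM does in EAT, but the other way round in IAT. This was the only member with an effective length below 10 bases, and without such genes the rule gives 44 members.

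The least abundant members were also near the limit of counting. The lowest by mean (323 bases) had 1.69, 8.10 and 5.46 TPM in EAT adipocytes and 6.65, 3.69 and 6.74 in IAT adipocytes, from 34 and 35 counts over the 3 libraries of each group. It was the only member with no count in any SVC library. The next lowest (2970 bases) had 5.05 ± 0.862 and 6.28 ± 1.15 TPM in the adipocytes of EAT and IAT and at most 0.0600 TPM in any SVC library. For such members the 0.1 added to each mean holds the ratio of adipocytes to SVCs down, at 51.8 and 40.6 in EAT.

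Within the bounds of the rule, the adipocyte levels leaned to IAT. The EAT to IAT ratio was below 1 for 34 members and above 1 for 11, with a median of 0.806 (quartiles 0.737 and 0.990). A ratio from 0.9 to 1.1 was found for 12 members and one below 0.8 for 22. Over the 9341 genes at that level in both adipocyte groups the median ratio was 0.981. On the log2 scale the median of the members was -0.31 in TPM and -0.17 in CPM (counts relative to library size, not corrected for length) scaled by edgeR's TMM method, a correction for library composition. The median of the 9341 genes was -0.03 and 0.03 on these scales. The word equal thus holds for the members only in the sense of the bounds.

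The members are a minority of the genes with this fraction pattern. Of the 205 genes at least 8 times higher in adipocytes in both depots at this level, 146 fell below the ratio of 0.67 between the depots' adipocytes, 7 lay above 1.5 and 52 within. Another 7 of these 52 were lost on the ratio in SVCs. The median adipocyte ratio of all 205 was 0.511. On the lower bound alone 123 genes failed, most of them well below it, since 11 of the 146 had a ratio of 0.6 or more. The nearest lay at 0.664 and 0.655, against 0.672 and 0.674 for the members just inside. At the upper bound 6 genes failed, the nearest at 1.51 and 1.53, against 1.46 and 1.41 inside. On the SVC bounds the members reached 0.417 and 2.49, with 0.261 and 2.5 just outside. For the fraction ratio the nearest values were 8.15 inside and 7.41 outside in EAT, and 9.47 and 4.87 in IAT. For the level they were 5.05 and 4.16 TPM in EAT and 5.69 and 4.85 TPM in IAT.

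**Figure D2:**
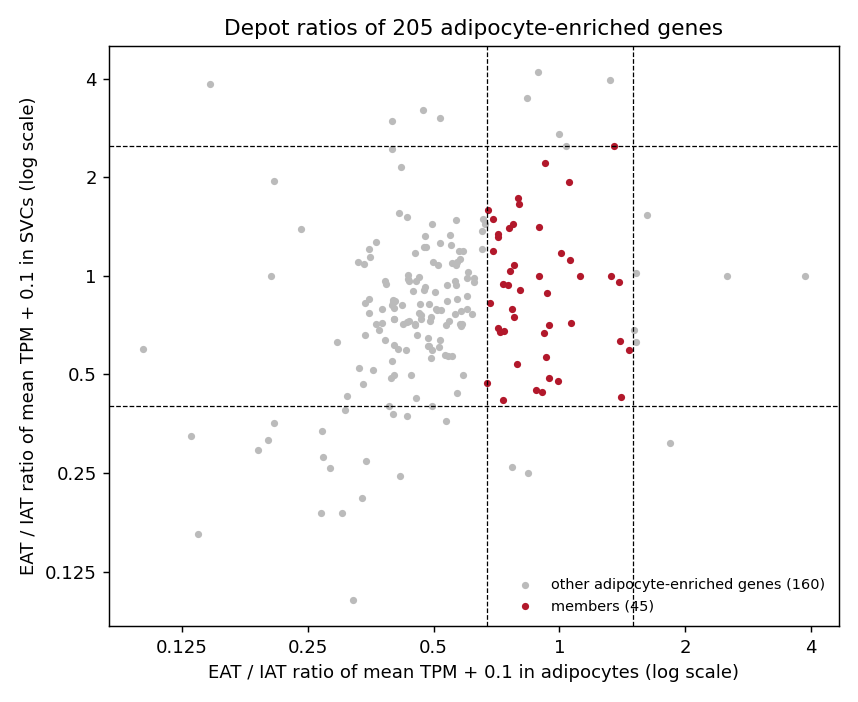
EAT to IAT ratio of mean TPM + 0.1 in adipocytes (horizontal) and in SVCs (vertical) for the 205 genes at least 8 times higher in adipocytes in both depots, both axes on a log scale, with dashed lines at the bounds of the rule and 1 point per gene. The 45 members (red) adjoin a larger group of 146 genes to the left of 0.67.

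The spread between EAT adipocyte libraries covered most of these differences. In 32 members the EAT and IAT adipocyte libraries overlapped. In 12 members all EAT libraries lay below all IAT libraries (background: 25.2% of the 9341 genes), and in 1 member they lay above (background: 19.1%). That 1 member (rank 31, 1182 bases) had 30.4, 36.3 and 30.2 TPM in EAT adipocytes and 26.6, 17.7 and 21.7 TPM in IAT adipocytes, with a ratio of 1.46. By edgeR's test with all 12 libraries, 2 of 44 members differed between the adipocyte groups (background: 39.7% of 15813 genes), the same member as higher and 1 other as lower in EAT (backgrounds: 21.6% and 18.1%). The lower one (rank 25, 2202 bases) had 47.6, 37.7 and 60.7 TPM in EAT and 74.8, 57.0 and 78.6 TPM in IAT adipocytes. Scaled by the size factors of DESeq2, the members called were 0 higher and 3 lower, and over all genes the calls went from 3414 higher and 2869 lower to 2814 higher and 3717 lower. The call in the member of rank 31 was also lost without EAT adipocyte replicate 2, IAT adipocyte replicate 2 or any 1 of the 6 SVC libraries. The rule bounds this contrast, so a low count is built into the choice. A difference that misses the threshold is not shown to be absent.

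The ratio depended on which EAT adipocyte library was read. Set against the mean of the IAT adipocytes, the median ratio of the members was 0.666 for replicate 1, 0.931 for replicate 2 and 0.872 for replicate 3. In replicate 1, 23 members lay below 0.67, against 6 in replicate 2 and 5 in replicate 3. No member exceeded 1.5 in replicate 1, 5 did so in replicate 2 and 3 in replicate 3. In 13 members every one of the 3 libraries was within the bounds. Replicate 1 was the lowest EAT adipocyte library for 30 members, 66.7%, against 20.3% of the 9341 genes. Among the 160 non-members with the same fraction pattern the share was 56.9%. Replicate 2 was the highest for 25 members, 55.6%, against 23.9%.

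**Figure D3:**
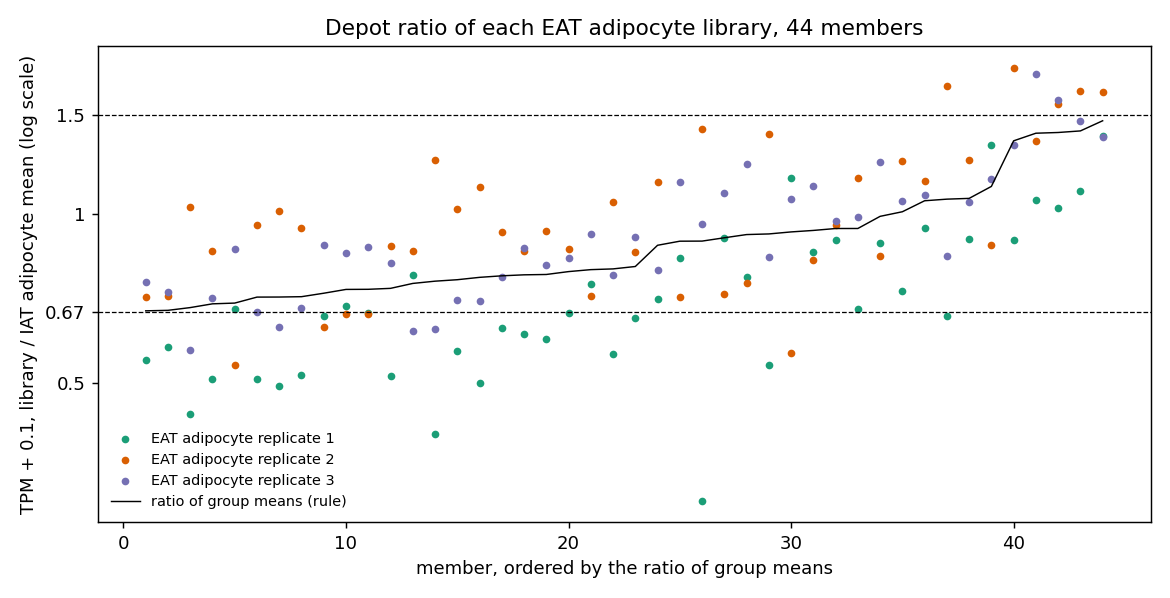
Ratio of each EAT adipocyte library to the mean of the 3 IAT adipocyte libraries (TPM + 0.1, log scale) for 44 members, ordered by the ratio of group means (black line), with 1 point per library and dashed lines at 0.67 and 1.5; the 119-base member is not drawn. Replicate 1 (green) lies below 0.67 for 23 of the 45 members, the undrawn one among them, while replicates 2 and 3 mostly lie within the bounds.

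The shift of replicate 2 went with gene length, which entered the rule only through the length correction in TPM. The members had a median length of 1359 bases, against 2042 bases for the other 160 adipocyte-enriched genes and 2575 bases for the 9341 genes at this level. A single transcript was listed for 20 of 45 members (44.4%), for 44.4% of the other enriched genes and for 30.3% of the 9341. Relative to the mean of replicates 1 and 3, EAT adipocyte replicate 2 was higher in 31 members, 68.9%, against 48.1% of the other enriched genes and 27.9% of the 9341. Among the 15 shortest members (up to 992 bases) the median log2 difference was 0.66 and 13 were higher in replicate 2. Among the 15 of middle length (1064 to 1871 bases) it was 0.30 with 14 higher, and among the 15 longest (1975 to 5021 bases) it was -0.22 with 4 higher. Genes at this level in the same length ranges had medians of 0.53, 0.05 and -0.65. For replicate 1 against the mean of replicates 2 and 3, the members' medians in these ranges were -0.73, -0.60 and -0.15. Genes at this level had -0.33, -0.06 and 0.28, so the members were lower in replicate 1 than genes of like length in each range. The mean that the rule used includes replicate 2, so genes that this library lifted above the lower bound were more readily chosen, and the difference between members and other genes is no independent result. Over 44 members, leaving out the 119-base one, log2 length and the log2 difference of replicate 2 correlated at r = -0.80 (Spearman's rho -0.74). The points share the same 3 libraries, and the coefficient is a description.

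**Figure D4:**
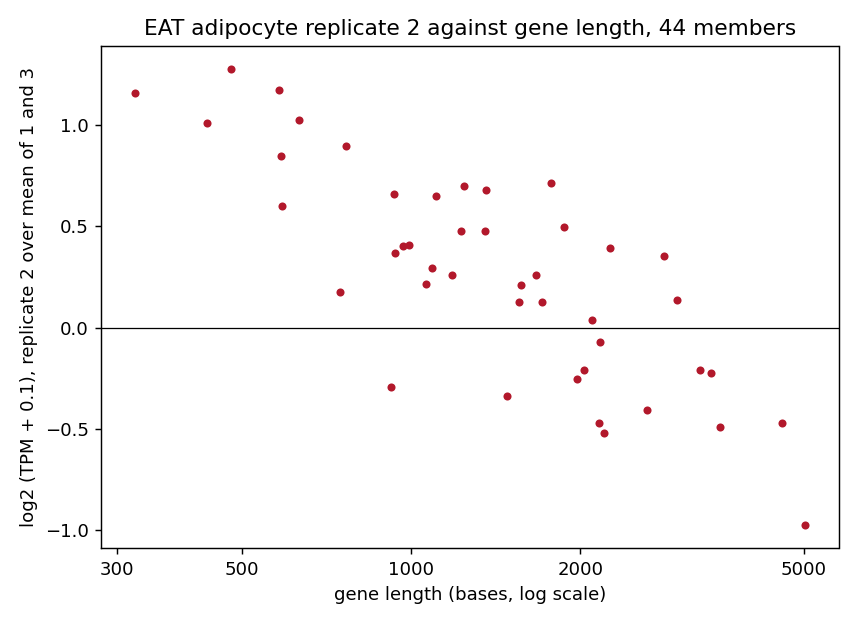
Log2 difference of EAT adipocyte replicate 2 from the mean of replicates 1 and 3 (TPM + 0.1) against gene length in bases on a log scale, 1 point per member, for 44 members without the 119-base one. Most members of up to 1871 bases lie above 0 and most of those from 1975 bases lie below it.

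Examples show what this meant for single members. The member of rank 12 (632 bases) had 146, 342 and 190.3 TPM in EAT adipocytes and 318, 385 and 292 TPM in IAT adipocytes. Its ratio was 0.681 with all 3 EAT libraries and 0.507 without replicate 2, the lowest of any member. The member of rank 20 (478 bases) had 36.7, 113 and 56.6 TPM in EAT and 86.3, 100.4 and 85.3 TPM in IAT adipocytes, and its ratio went from 0.759 to 0.515. Only replicate 2 reached the IAT range in the former and exceeded it in the latter. The reverse held for the longest member (rank 35, 15 transcripts, 5021 bases), which had 18.4, 8.92 and 16.9 TPM in EAT and 18.7, 14.9 and 14.0 TPM in IAT adipocytes. There replicate 2 was the lowest of the 6 libraries, and the ratio went from 0.929 to 1.11.

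Without EAT adipocyte replicate 2, 32 of the 45 members kept an adipocyte ratio within the bounds, 12 fell below 0.67 and 1, the 119-base model, rose above 1.5. The median ratio was 0.769. Of the 160 other adipocyte-enriched genes, 150 lay below 0.67 without this library, with a median of 0.466. With all 3 EAT adipocyte libraries 146 of them already lay below it. In edgeR's test on counts without that library, 22 of 44 members were lower in EAT adipocytes (background: 26.3% of 16065 genes) and 0 were higher (background: 27.1%), where 23 members passed at an unadjusted p below 0.05. DESeq2 was run only with all 12 libraries, where it called 3 members lower and 0 higher. Over all genes the share called in either direction also rose without this library, to 53.4%. Without EAT adipocyte replicate 1 instead, 5 members were called higher and 1 lower, against 3207 higher and 2510 lower of 16087 genes. Of the 22, 10 were among the 15 shortest tested members (323 to 1064 bases), 7 among the 15 of middle length and 5 among the 14 longest. The 22 had TPM ratios of 0.507 to 0.836 without replicate 2, and 11 of them remained within the bounds in TPM. The 2 most abundant members were among the 22. The rule bounds the adipocyte depot ratio, so the counts of members called are no independent result. The part of gene length in the depot ratios was not tested.

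In SVCs, where the members were low, 25 had a ratio of EAT to IAT below 1, 17 above 1 and 3 of 1, 2 of which had no TPM in any SVC library. In 12 members all EAT SVC libraries lay below all IAT SVC libraries (background: 19.3% of the 9341 genes) and in 9 members above (background: 25.4%). By edgeR's test, 7 of 44 members differed between the SVC groups (background: 14.6% of 15813 genes), 6 lower in EAT and 1 higher (backgrounds: 6.86% and 7.77%). The lower ones were uc009dgb.1 and the members of ranks 10, 19, 22, 29 and 35, and the higher one was that of rank 42. The higher call was lost with DESeq2 (0 higher, 7 lower) and without EAT SVC replicate 1, IAT SVC replicate 1 or IAT SVC replicate 2 (0 higher and 4 lower each). Over all genes the calls also fell without each of these SVC libraries. They went from 1229 higher and 1085 lower to between 720 and 865 higher and between 581 and 782 lower. The rule bounds this contrast as well. In 5 members the ratio was above 1 in adipocytes and below 1 in SVCs. Among these was the member of rank 31 described above, with ratios of 1.46 and 0.594 and no overlap between depots in either fraction. Its SVC levels rested on 26.45 summed counts in EAT and 42.28 in IAT. By edgeR's test its difference between the SVC groups was not called (adjusted p 0.243). Another of the 5 was the member of rank 10 (937 bases), chosen after its values were seen, whose EAT and IAT adipocyte libraries overlapped. It had 296.5, 446 and 395 TPM in EAT adipocytes and 264, 212 and 334 TPM in IAT adipocytes, a ratio of 1.41. In EAT SVCs it had 2.31, 4.30 and 2.90 TPM, all below the 8.15, 7.82 and 6.74 TPM of IAT SVCs, a ratio of 0.426. The opposite pair of ratios, below 1 in adipocytes and above 1 in SVCs, was found for 13 members. As 34 of the 45 members were below 1 in adipocytes, more members could show this pair. No share over all genes is given for either pair, and nothing is read from the 2 counts. Among the 13 was the member of rank 11 (434 bases). It had 181, 465 and 281 TPM in EAT and 359, 325 and 321 TPM in IAT adipocytes, a ratio of 0.921. In SVCs it had 2.89, 2.89 and 6.25 TPM in EAT against 2.69, 1.06 and 1.51 TPM in IAT, a ratio of 2.22. These SVC levels rested on 39 and 16 summed counts. By edgeR's test on counts its adipocyte log2 difference was 0.07, of the other sign (adjusted p 0.898), and the adjusted p in SVCs was 0.416.

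With all 12 libraries, replicates of the members varied most in EAT adipocytes. The median within-group SD of log2(TPM + 0.1) was 0.34 in EAT adipocytes and 0.16 in IAT adipocytes. Over the other 160 enriched genes it was 0.35 and 0.16, and over the 9341 genes 0.35 and 0.13, so the members' spread was close to that of both. Without replicate 2 the value of the members in EAT adipocytes was 0.28, below the 0.32 of the members in IAT SVCs. In SVCs it was 0.28 in EAT and 0.32 in IAT, against 0.28 and 0.22 for the other enriched genes and 0.11 and 0.11 for the 9341 genes. The members were low there, with a median of 1.05 TPM in EAT SVCs and 1.56 TPM in IAT SVCs.

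The rule was also applied without the 4 libraries of 1 replicate number, and the ratios were then read in those 4 libraries. The numbers tie no animals across groups in the labels, so this is a reading of 4 libraries at a time. Chosen without replicate 1, 49 genes met the rule, of which 20 had an adipocyte ratio within the bounds in the replicate 1 libraries, 28 lay below and 1 above, with a median of 0.636. Chosen without replicate 2, 32 genes met it, of which 19 were within, 5 below and 8 above in replicate 2, with a median of 1.12. Chosen without replicate 3, 42 genes met it, of which 31 were within, with a median of 0.868. Of the 9341 genes with a mean of at least 5 TPM in both adipocyte groups, 67.6% had a ratio of adipocyte group means within these bounds. A share near that value is no result about the chosen genes. The fraction ratio was at least 8 in the libraries not used for 40 of 49, 29 of 32 and 40 of 42 genes in EAT and for 48, 30 and 39 in IAT. All criteria together were met in the libraries not used by 11, 16 and 22 genes.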

How the data were processed

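RNA was sequenced from 12 libraries, 3 in each of 4 groups, with groups and replicate numbers taken from the labels' titles. The deposited tables hold expected counts, TPM and FPKM with gene length and effective length in bases, per the file headers. Tools named in the submitters' processing notes, without a role, are Bowtie2 2.2.6, limma and RSEM 1.2.25, beside the builds mm10 and GRCm38. No source used here gives the strand setting, so overlapping genes and near-identical copies are uncertain.

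Members were chosen on the authors' deposited TPM; the deposited FPKM served only as an alternative. The members, the lists and the tests were chosen with earlier results of these data known. No table used here pairs the identifiers with symbols, so the gene lists and markers set down for cell types and pathways, and sequences of the members, were not analysed here. The rule for single genes, without symbols, took the 2 most and the 2 least abundant members; the former are given by identifier, and the other single members were picked after their values were seen.

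The deposited expected counts, rounded to whole numbers, were tested with edgeR 4.0.16 in R 4.3.3: TMM scaling, filterByExpr (15813 genes kept, 44 of the 45 members), 1 coefficient per group over all 12 libraries, two-sided quasi-likelihood tests, Benjamini-Hochberg adjustment over all genes tested, threshold 0.05. The pipeline was tested on simulated counts with known changes. Alternatives were DESeq2 1.42.0 and its size factors, no filter, only the 6 libraries compared, a replicate block, each library left out, and other units, thresholds and added constants for the rule. Same-numbered libraries deviated together, with correlations across genes above 0.1 for every number, between IAT adipocytes and IAT SVCs (lowest r 0.290), EAT SVCs and IAT SVCs (0.174), and IAT adipocytes and EAT SVCs (0.120), but not in the pairs with EAT adipocytes (lowest r -0.149). The labels do not state what same-numbered libraries share, so no pairing is concluded from these correlations. The main tests fitted no replicate block, which was an alternative only.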

Additional observations from a re-analysis of the deposited data

How the results depend on the processing

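The 45 members became 74 with a fraction ratio of at least 4, 29 with at least 16 and 69 with TMM-scaled CPM in place of TPM, the last chosen after seeing the data, of which 39 were among the 45. With TMM-scaled TPM, 41 of 49 genes were shared, with FPKM 37 of 50, and with medians 32 of 37. Leaving out 1 library gave 38 to 50 members, and leaving out 1 replicate number in all groups gave 32 to 49. Without EAT adipocyte replicate 2, 30 of 38 genes were shared, and 26 of 33 on TMM-scaled TPM, also chosen after seeing the data. The 2 members called between the adipocyte groups became 0 when only the 6 adipocyte libraries were fitted with edgeR (1 at an unadjusted p below 0.05). With the replicate block 1 was called. Same-numbered adipocyte libraries of the 2 depots correlated at 0.034, 0.173 and 0.202, not all above 0.1, and 5 of 6 correlated best with their own number. Without 1 library, 1 to 22 were called. Without EAT adipocyte replicate 2 there were 22, all lower in EAT (all genes: 4352 higher and 4222 lower of 16065). Without EAT adipocyte replicate 1 there were 6, of which 5 were higher and 1 lower (all genes: 3207 higher and 2510 lower of 16087). Without IAT adipocyte replicate 2 or any 1 of the 6 SVC libraries there was 1. The 7 called between the SVC groups became 6 with the replicate block and 4 to 11 without 1 library. With all 12 libraries the SVC calls over all genes were 1229 higher and 1085 lower of 15813. Members called were 11 without EAT adipocyte replicate 2 (all genes: 2390 higher and 2357 lower of 16065). They were 4 without EAT SVC replicate 1 (all genes: 822 higher and 617 lower of 16016). They were also 4 without IAT SVC replicate 1 (all genes: 865 higher and 782 lower of 16023). The same number was left without IAT SVC replicate 2 (all genes: 720 higher and 581 lower of 16046). In these SVC runs without 1 library, the calls over all genes rose and fell with those of the members. Other runs differed. Without EAT adipocyte replicate 1 the adipocyte calls of members rose, while those over all genes fell from 3414 higher and 2869 lower. With the replicate block the SVC calls of members fell, while those over all genes rose to 1328 higher and 1177 lower. The fraction calls stayed at 43 or 44 members in every alternative run, the block included. The cause of these changes was not tested. With 1 in place of 0.1 added to TPM, the median SD of the members was 0.15 in EAT SVCs and 0.16 in IAT SVCs, and on TMM-scaled CPM it was 0.53 in EAT adipocytes. Depth limits the SVC values, and the counts behind a given TPM also depend on gene length. In EAT SVCs the member of rank 15 (921 bases) had 0.717 TPM from 18 summed counts. The longest member (rank 35, 5021 bases) had 0.640 TPM there from 96.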
